A study of Mus musculus with 6 samples.

Results

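The data described here are the baseline transcriptome of the young mouse intervertebral disc (IVD), taken from the 3 control libraries among the 6 RNA-seq libraries of the series. Members were taken by label, as the libraries titled Col2Cre_Control, with earlier results of these data known, and no mutant library was used. Each control library was made from discs of the thoracic and lumbar spine of 2 to 3 mice at postnatal day 20, labelled wild type for genotype and C57B6/J for strain, and the study's methods describe the controls as Cre (-) littermates of mice that lose the adhesion receptor gene Adgrg6 under Col2Cre. The labels give the mice no treatment. Because discs of several mice were pooled before extraction, the spread given below is between 3 pools and not between single animals, and the sources used here do not say whether the controls carried floxed Adgrg6 alleles. The pools are called control pool 1, 2 and 3, after the numbers in their titles, and values are listed in that order.

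The IVD joins a gelatinous core, the nucleus pulposus, with a lamellated ring, the annulus fibrosus, and with cartilaginous endplates that border the growth plates of the vertebrae. Its cells sit in a matrix of type II collagen fibrils, which resist tension, and of aggrecan, a proteoglycan that binds water and resists compression, while the outer annulus is rich in type I collagen. The nucleus pulposus descends from the notochord and retains notochordal keratins and the transcription factor T (brachyury). In bulk tissue, fewer cells of a type and less RNA per cell cannot be told apart.

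The libraries held 9528291, 9061491 and 11207307 counts assigned to genes, which were 44.2%, 42.7% and 40.4% of all entries in their files. Entries that matched no annotated feature took a further 42.6%, 42.8% and 43.3%. Of 43472 gene symbols, 17059 reached a mean of 1 count per 1000000 gene counts (CPM), 10232 reached 10 CPM and 1371 reached 100 CPM. CPM is a share of a library and takes no account of gene length, so genes were compared with each other on TPM, which divides counts by exon length, is scaled to a sum of 1000000 and was computed over protein-coding genes. In all 3 libraries some genes that every cell uses were listed at 0, among them the ribosomal protein genes Rpl13 and Rpl24, so a gene listed at 0 is not described as absent.

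Counts were concentrated in a small share of the genes. On mean CPM, 330 genes held 50% of the gene counts, with 284, 258 and 441 genes needed in pools 1, 2 and 3 taken alone. The 10 highest genes held 21.5% of the gene counts and the 100 highest held 39.3%. On TPM, 180 protein-coding genes held 50% of the total. Pool 3 thus spread its counts over more genes than the other pools, and a single gene, Col2a1, took the largest share in every pool.

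**Figure D1:**
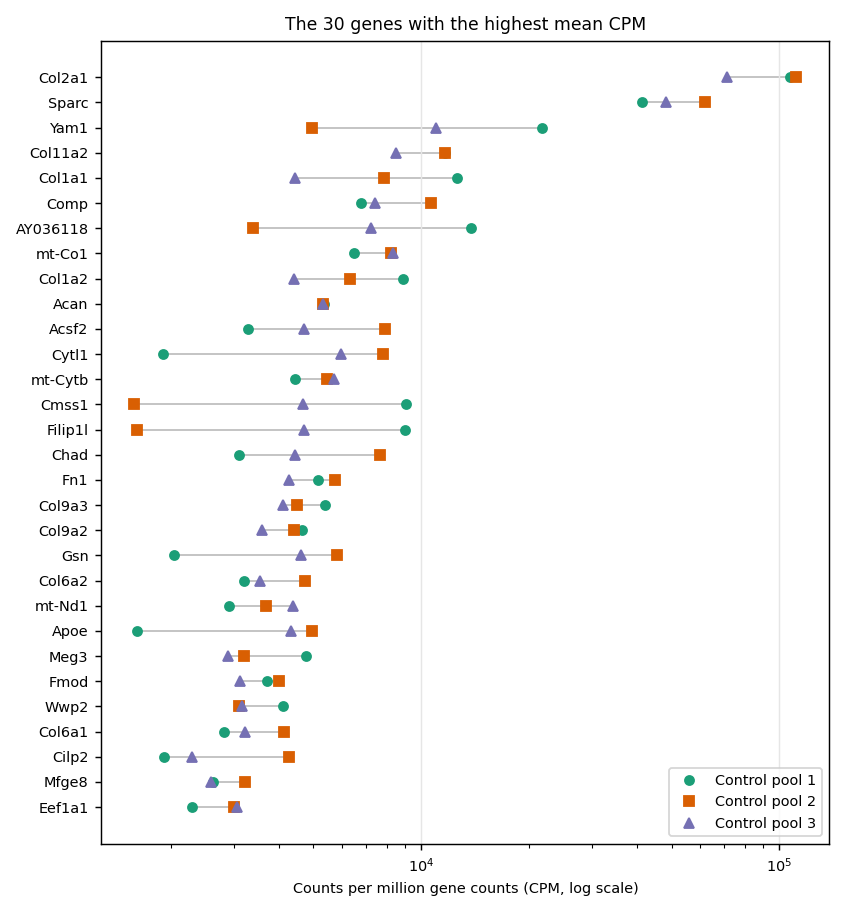
CPM (log axis) of the 30 genes with the highest mean CPM, with a symbol for each of the 3 control pools and a grey line over their range. Col2a1 led at 107008, 111507 and 71577 CPM, Acan lay at nearly the same level in all pools, and Yam1, AY036118, Cmss1 and Filip1l stood highest in pool 1 and lowest in pool 2.

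The defining matrix genes of the disc were present at high level in every pool. Col2a1, the chain of type II collagen (chromosome 15, 97975602 to 98004695, minus strand, GRCm38), took 10.7% of the gene counts in pool 1, 11.2% in pool 2 and 7.16% in pool 3. Its 95% Wilson interval in pool 3 was 7.14% to 7.17%, which covers counting error only. Sparc, which encodes the collagen-binding glycoprotein osteonectin (chromosome 11, 55394500 to 55423183, minus strand), took 4.14%, 6.19% and 4.81%. Sparc exceeded Col2a1 per length, with 48765 ± 8052 TPM (SD, n = 3 pools) against 38823 ± 10459 TPM, but the difference between these means was smaller than the SD of Col2a1. In pool 1 the order was reversed, with 44059 TPM for Sparc and 46660 TPM for Col2a1.

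Acan, the core protein of aggrecan (chromosome 7, 79053483 to 79115099, plus strand), lay at 5356, 5326 and 5312 CPM, a range of 1.01-fold. Col1a1, a chain of type I collagen (chromosome 11, 94936224 to 94953042, plus strand), lay at 12612, 7879 and 4428 CPM. Col1a1 thus separated the pools by 2.85-fold while Acan did not separate them on this scale. The count of Col1a1 for each count of Col2a1 was 0.118, 0.0707 and 0.0619, so the fibrous chain was also higher relative to the cartilage chain in pool 1 than in the other pools.

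The scaling of the libraries bears on such statements. The trimmed mean of M-values (TMM) gave factors of 0.961, 0.956 and 1.09, and the median gene of at least 10 CPM lay 0.16 lower in pool 2 than in pool 3 on the log2 scale of CPM. With TMM scaling Acan lay at 5598, 5611 and 4934 CPM, a range of 1.14-fold, and Col1a1 ranged over 3.21-fold. Levels below are CPM unless TMM is named.

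Genes of the extracellular matrix, 106 in all over 9 lists, held 26.2%, 29.5% and 21.3% of the gene counts, a mean of 25.7% ± 4.12 (SD, n = 3 pools). On TPM the mean share was 18.5%. Of the 106 genes, 104 reached 1 CPM and 99 reached 10 CPM. Among those 99 genes, 15, or 15.2%, differed by more than 2-fold between the highest and the lowest pool. This share was 9.45% for all 10232 genes of at least 10 CPM, which were not matched for level. It was 17.8% at 10 to 20 CPM, 3.35% at 50 to 100 CPM and 22.2% at 500 CPM or more.

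**Figure D2:**
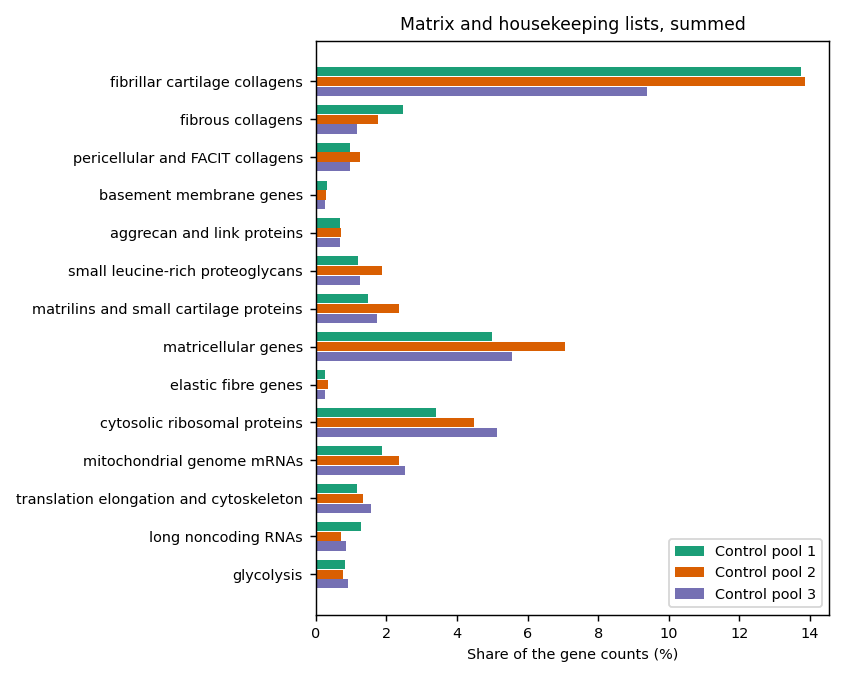
Share of the gene counts (%, bars from 0) held by each matrix list and by 5 lists of housekeeping and noncoding genes in the 3 control pools. On counts, fibrillar cartilage collagens were the highest list in each pool and lowest in pool 3. Cytosolic ribosomal proteins held 3.41% in pool 1, 4.49% in pool 2 and 5.14% in pool 3. On TPM, which is not drawn, the order differed. The mean share was 10.1% for cytosolic ribosomal proteins, 6.99% for mitochondrial genome mRNAs and 5.71% for fibrillar cartilage collagens.

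The collagens of cartilage fibrils, 7 genes, summed to 137535, 138550 and 93960 CPM, and none of them differed by more than 2-fold between pools. Beside Col2a1, Col11a2, which codes for a chain of the type XI collagen in the fibril core, lay at 11658, 11667 and 8511 CPM. Type IX collagen coats the fibril. Its chain Col9a3 lay at 5388, 4497 and 4107 CPM and Col9a2 at 4655, 4398 and 3589 CPM. Per length, Col11a2, Col9a2 and Col9a3 lay at 5724, 5049 and 4497 TPM with SDs of 1291, 1013 and 1010. The differences between neighbours in this order were smaller than the SDs, but the order was the same in each of the 3 pools. Each of these genes was lowest in pool 3, as Col2a1 was.

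Fibrous collagens showed the wider spread. The 6 genes summed to 24853, 17692 and 11784 CPM, and 2 of them, Col1a1 and Col1a2, passed the 2-fold limit, beside 9.45% of all genes. Col1a2, the partner chain of Col1a1, lay at 8905, 6327 and 4402 CPM. By contrast Col3a1, the chain of type III collagen, lay at 2003, 1942 and 1790 CPM and differed little. The pericellular type VI chains Col6a1 and Col6a2 were highest in pool 2, with 2821, 4150 and 3223 CPM for Col6a1, while the chain Col6a3 lay at 1697, 1643 and 1330 CPM. All 44 genes with a collagen symbol together held 17.4%, 17.0% and 11.7% of the gene counts.

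Small proteoglycans and small cartilage proteins were highest in pool 2. The small leucine-rich proteoglycans, which bind collagen fibrils and set their diameter, summed to 12100, 18667 and 12642 CPM. Without Chad, whose counts cannot be told apart from those of Acsf2, an alternative chosen after seeing the data, they summed to 8997, 11006 and 8211 CPM. Fmod (fibromodulin) lay at 3718, 3995 and 3117 CPM and Bgn (biglycan) at 2736, 2854 and 2075 CPM. Chadl, a chondroadherin-like gene, lay at 448, 1097 and 633 CPM. The list of matrilins and small cartilage proteins summed to 14701, 23655 and 17331 CPM. Comp, which bridges collagen fibrils, lay at 6800, 10650 and 7442 CPM.

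Cilp and Cilp2, genes of cartilage intermediate layer proteins, separated the pools further. Cilp lay at 670, 1970 and 1515 CPM and Cilp2 at 1918, 4268 and 2293 CPM. Among short transcripts, Clec3a, a cartilage lectin, reached 4894 ± 796 TPM and Ucma, a small protein of upper growth plate cartilage, 4109 ± 612 TPM. Lect1, the file's name for the chondromodulin gene Cnmd, reached 3844 ± 541 TPM. These short genes thus stood beside Col1a1, at 4786 ± 2736 TPM, once length was taken into account.

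Aggrecan and its partners were the matrix list with the evenest sum, most of which was Acan, at 6923, 7067 and 6957 CPM, which became 7236, 7445 and 6462 under TMM. Hapln1, the link protein that holds aggrecan to hyaluronan, lay at 1153, 857 and 983 CPM. Prg4 (lubricin), a surface lubricant, lay at 211, 544 and 305 CPM, and Vcan (versican) at 135, 283 and 294 CPM. Prg4 and Vcan were the 2 of 7 members over the 2-fold limit, or 28.6%, beside 9.45% of all genes, so that the members were less even than their sum. Among matricellular genes other than Sparc, Fn1 (fibronectin) lay at 5149, 5746 and 4273 CPM, and the stretch-responsive genes Ctgf at 398, 183 and 207 CPM and Cyr61 at 298, 143 and 175 CPM. Elastic fibre genes summed to 2742, 3364 and 2745 CPM, with Eln (elastin) at 1040, 1278 and 994 CPM.

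Genes of the machinery that makes and exports matrix were grouped with metalloproteinases and their inhibitors. The group had 84 genes at 10 CPM or more. Of these, 5 passed the 2-fold limit, or 5.95%, beside 9.45% of all genes, not matched for level. Under TMM 8 of the 84 passed it, beside 8.05%. None of the 23 genes of collagen folding and crosslinking did so on CPM, with sums of 8547, 7969 and 7187 CPM, while Loxl4, a lysyl oxidase-like gene, spanned 2.07-fold under TMM. Serpinh1, the collagen chaperone HSP47, lay at 2032, 1767 and 1603 CPM. None of 23 endoplasmic reticulum chaperones and their regulators passed the limit either, and their sums of 3054, 3068 and 2913 CPM spanned 1.05-fold. Of 21 genes of glycosaminoglycan synthesis at 10 CPM or more, 2 passed it, and 3 under TMM. Metalloproteinases and their inhibitors held 0.152% ± 0.00888 of the gene counts, and 3 of 17 at 10 CPM or more passed the limit, or 17.6%, and 4 under TMM. Their inhibitor genes Timp2 and Timp3 lay at 320, 384 and 399 CPM and at 374, 251 and 304 CPM, and the membrane collagenase Mmp14 at 310, 261 and 251 CPM. Per length, Timp2 lay at 346 TPM, Mmp14 at 170 TPM and Timp3 at 141 TPM.

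Of 24 cartilage transcription factors, 23 reached a mean of 1 CPM. Sox9, the master regulator of chondrocytes, lay at 552, 570 and 455 CPM. Its partners Sox5, at 257, 201 and 429 CPM, and Sox6, at 245, 169 and 393 CPM, were highest in pool 3. Both passed the 2-fold limit on CPM, while under TMM the range of Sox5 was 1.89-fold and that of Sox6 2.06-fold. Pax1, a factor of the sclerotome from which vertebrae and annulus derive, lay at 135, 206 and 171 CPM and Nkx3-2, another sclerotome factor, at 38.6, 85.9 and 48.9 CPM. Sox9 thus varied less than its partners. In all, 5 of 21 factors at 10 CPM or more passed the limit, or 23.8%, beside 9.45% of all genes. Under TMM 3 of the 21 did, beside 8.05% of all genes.

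The receptor gene deleted in the mutants of this study, Adgrg6, is listed as Gpr126 and lay at 121, 107 and 108 CPM in the controls. It was thus present in each pool and spanned less than the median gene's range of 1.36-fold. Among other receptors Fgfr2 lay at 1160, 1195 and 1606 CPM, and Pth1r, which receives parathyroid hormone-related peptide, at 1071, 793 and 709 CPM. Of 31 receptors at 10 CPM or more, 3 passed the 2-fold limit, or 9.68%, close to the 9.45% of all genes, and 1 did under TMM. The mechanosensitive channel gene Trpv4 lay at 618, 698 and 532 CPM, Piezo1 at 248, 217 and 191 CPM, and 1 of 20 channels and transporters passed the limit.

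Of 33 secreted signals at 10 CPM or more, 8 passed the limit, or 24.2%, beside 9.45% of all genes, and 7 did under TMM, beside 8.05%. Cytl1, a cytokine-like protein of cartilage, lay at 1896, 7809 and 5978 CPM. At 17735 ± 9669 TPM it held rank 4 per length among protein-coding genes on the mean of the pools. In pool 1 it lay at 7235 TPM, below genes ranked after it such as mt-Cytb at 15668 TPM. Sfrp5, an inhibitor of Wnt ligands, lay at 175, 603 and 543 CPM. Both were low in pool 1 and high in pools 2 and 3. Wif1, another Wnt inhibitor, lay at 263, 450 and 346 CPM and Ihh, the ligand that paces chondrocyte maturation, at 184, 188 and 128 CPM. Grem1, a BMP antagonist, lay at 130, 246 and 246 CPM.

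Each marker list of the disc and cartilage compartments had counts in all 3 pools. Among hypertrophic cartilage genes were Col10a1 at 628, 328 and 258 CPM, Alpl at 630, 536 and 473 CPM and Ibsp at 406, 399 and 284 CPM, and its 12 genes summed to 4098, 3246 and 3116 CPM. Superficial and articular chondrocyte genes summed to 1881, 4687 and 3455 CPM, with Clu (clusterin) at 429, 1371 and 948 CPM. Of the 8 at 10 CPM or more, 5 were highest in pool 2, as were 20.6% of all genes, and 5 were under TMM, beside 31.6%. The list was lowest in pool 1, where the hypertrophic and the osteoblast lists were highest. The part of neighbouring bone in the hypertrophic values was not tested.

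The nucleus pulposus list was highest in pool 3 and lowest in pool 2, an order held by 5 of the 48 lists on CPM, among them the cartilage transcription factors and glycolysis. Its 16 genes summed to 4471, 3274 and 6656 CPM, and 10 of the 13 at 10 CPM or more were highest in pool 3, where 49.4% of all genes at that level were highest. Under TMM the sums were 4673, 3449 and 6182 CPM, in the same order, with 9 of the 13 genes and 29.2% of all genes highest in pool 3. Krt19, a keratin retained from the notochord, lay at 401, 366 and 900 CPM and its filament partner Krt8 at 310, 290 and 726 CPM. The count of Krt8 for each count of Krt19 was 0.774, 0.794 and 0.806, so the keratins moved together across pools. T lay at 215, 129 and 354 CPM and Car3, a carbonic anhydrase, at 2266, 1260 and 3124 CPM. Under TMM the range of Krt19 was 2.17-fold and that of T 2.42-fold. Of the 13 genes, 6 passed the 2-fold limit, beside 9.45% of all genes, and 5 did under TMM, beside 8.05%. Noto, a notochord factor, was listed at 0, and Shh lay at 0.315, 0.552 and 2.14 CPM.

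**Figure D3:**
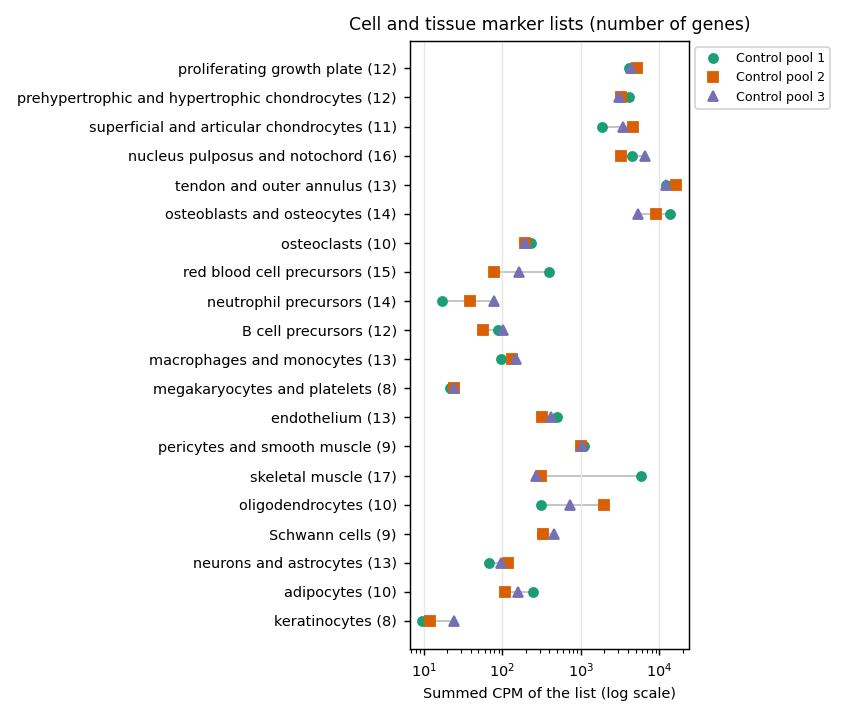
Summed CPM (log axis) of the marker lists of disc and cartilage compartments and of other tissues in the 3 control pools, with the number of genes of each list in brackets. Skeletal muscle genes stood at 5918 CPM in pool 1 and at 310 and 274 CPM in the others, and oligodendrocyte genes stood at 1951 CPM in pool 2.

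Among all lists, skeletal muscle genes separated the pools most, by 21.6-fold between the highest and the lowest sum, followed by oligodendrocyte genes at 6.30-fold and red blood cell precursors at 5.0-fold. Neutrophil precursors, with sums under 100 CPM, spanned 4.58-fold and adipocytes 2.24-fold, while osteoclasts spanned 1.20-fold and pericytes and smooth muscle 1.12-fold. Osteoblasts and osteocytes spanned 2.58-fold, but most of that sum was Col1a1, which alone spanned 2.85-fold and is also a gene of the outer annulus. All 17 skeletal muscle genes were highest in pool 1, as were 30% of all genes at 10 CPM or more, and all passed the 2-fold limit, with sums of 5918, 310 and 274 CPM. Acta1, skeletal actin, lay at 1235, 28.9 and 12.7 CPM, and Myh1, a fast myosin heavy chain, at 939, 1.99 and 4.46 CPM. Tnnt3, a fast troponin, lay at 439, 35.2 and 42.7 CPM. Tnni2 was the exception in pools 2 and 3, at 354, 159 and 149 CPM, where the other 16 genes lay no higher than 42.7 CPM. Muscle genes were thus counted in every pool, but at far lower levels outside pool 1.

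Red cell genes were also highest in pool 1, with sums of 390, 77.9 and 163 CPM. Hbb-bs, an adult beta-globin, lay at 142, 16.6 and 41.8 CPM and Hba-a1, an alpha-globin, at 127, 13.8 and 49.0 CPM. Adipocyte genes summed to 246, 110 and 159 CPM, with Fabp4 at 127, 56.0 and 85.5 CPM, while their defining hormone gene Adipoq lay at 2.10, 2.76 and 1.07 CPM. Pool 1 was also highest in the osteoblast list, at 13854, 9000 and 5373 CPM, most of which was Col1a1. Osteocyte genes were low in all pools, with Sost at 2.31, 2.21 and 2.32 CPM and Dmp1 at 25.0, 4.52 and 6.51 CPM. The part of neighbouring bone and muscle in the collagen I values of pool 1 was not tested.

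The oligodendrocyte list was highest in pool 2, and most of its sum there was Mbp. Its 10 genes summed to 309, 1951 and 725 CPM. Mbp (myelin basic protein), shared by central and peripheral myelin, lay at 165, 1500 and 502 CPM and Mobp, an oligodendrocyte gene, at 17.2, 249 and 54.7 CPM. The lineage factors Olig1, at 0.945, 2.43 and 0.714 CPM, and Olig2, at 0, 1.10 and 0 CPM, were near the limit of detection, and Mog and Mag lay under 10 CPM in every pool. Gfap, an astrocyte gene, lay at 9.55, 34.3 and 7.41 CPM.

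Neutrophil and keratinocyte lists were near 0. Of 14 neutrophil precursor genes and 8 keratinocyte genes, none reached 10 CPM, and sums were 17.3, 38.7 and 79.3 CPM for the former and 9.66, 12.0 and 24.2 CPM for the latter. The macrophage list summed to 95.6, 134 and 152 CPM, with Lyz2 at 19.1, 27.4 and 30.5 CPM. Endothelial genes summed to 505, 323 and 422 CPM, and Pecam1 lay at 75.5, 36.3 and 54.6 CPM. Of the osteoclast genes, Ctsk lay at 45.9, 52.9 and 47.8 CPM, while the defining receptor Calcr lay at 0.525, 1.54 and 5.09 CPM.

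Ribosomal protein and mitochondrial genome transcripts were lowest in pool 1. The 79 cytosolic ribosomal protein genes summed to 34064, 44916 and 51398 CPM, and 74 of the 76 at 10 CPM or more were highest in pool 3, as were 49.4% of all genes. Under TMM the sums were 35605, 47316 and 47738 CPM, 44 of the 76 genes and 29.2% of all genes were highest in pool 3, and pool 1 stayed lowest. Glycolysis genes summed to 8324, 7732 and 9177 CPM, with Pkm at 1683, 1752 and 1882 CPM. Transcripts of the mitochondrial genome summed to 18682, 23484 and 25383 CPM, with mt-Co1 at 6468, 8255 and 8343 CPM. Other transcripts of that genome were listed at low values, such as mt-Co2 at 10.6, 21.4 and 27.3 CPM, and their levels are not compared with mt-Co1 here.

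Lists of cell cycle and stress genes were counted in every pool. The 17 cell cycle genes summed to 367, 266 and 303 CPM, with Mki67 at 44.2, 27.1 and 30.2 CPM. Heat shock genes summed to 1007, 888 and 1053 CPM and immediate early genes to 1925, 2418 and 2135 CPM. Of the latter, Fos lay at 47.1, 14.7 and 32.5 CPM and Egr1 at 44.2, 13.0 and 21.5 CPM. Jund lay at 634, 1407 and 1074 CPM, and per length at 2257 TPM against 50.3 TPM for Fos. Interferon response genes summed to 70.0, 70.3 and 102 CPM. Hox genes, which record position along the spine, included Hoxb6 at 148, 133 and 118 CPM. Of 34 Hox genes 16 reached 1 CPM, as did 17059 of all 43472 symbols. Hox genes listed at 0 numbered 10, or 29.4%, among them Hoxa5 and Hoxc8. At 0 in all pools were 16.3% of protein-coding genes and 41.5% of all symbols. Both Xist, at 204, 99.3 and 134 CPM, and the Y-linked Ddx3y, at 12.9, 21.2 and 24.4 CPM, were counted in each pool.

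Noncoding transcripts and a microRNA host stood among the 30 highest genes. Meg3, an imprinted noncoding RNA, lay at 4754, 3204 and 2881 CPM. Wwp2, a ubiquitin ligase gene that hosts miR-140, a microRNA known for its role in cartilage, lay at 4101, 3090 and 3157 CPM. Both were highest in pool 1. Mature microRNAs listed within these hosts are shown because the host transcripts are so abundant, with sequences from RefSeq (GRCm38.p6) and the seed, bases 2 to 8, in capitals. The hairpin of miR-140 lies at chr8:107551244-107551313 on the plus strand, within the host. The poly(A) libraries measure the hosts and not the mature microRNAs.
miR-140-3p: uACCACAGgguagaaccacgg
miR-770-5p: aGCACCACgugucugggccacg
miR-770-3p: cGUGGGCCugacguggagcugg
miR-1906: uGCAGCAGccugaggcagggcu
These 4 seeds differ. The sequence of miR-1906 lies within Meg3 at chr12:109544588-109544609, and the miR-770 arms come from a hairpin inside Meg3 at chr12:109563692-109563785 on the plus strand.

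The profiles of the 3 pools were compared over all genes. Over genes of at least 10 CPM, Pearson's r of log2(CPM + 0.5) was 0.915 between pools 1 and 2, 0.90 between pools 1 and 3 and 0.959 between pools 2 and 3, across 10232 genes that are not independent replicates. The biological coefficient of variation from edgeR's common dispersion was 0.274, over 14671 genes. The median gene of at least 10 CPM had a CV between pools of 15.9%, against 5.59% from counting alone.

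In all, 967 of 10232 genes, 9.45%, differed by more than 2-fold between the highest and the lowest pool. Of these 10232 genes, 426 did so between pools 2 and 3, 481 between pools 1 and 2 and 560 between pools 1 and 3. Pool 3 was highest for 580 of the 967 genes, or 60.0%, pool 1 for 244 and pool 2 for 143. Under TMM, 825 genes passed the limit and pool 3 was highest for 352 of them, or 42.7%, pool 1 for 293 and pool 2 for 180. Among the genes past the limit, pool 3 was thus highest most often under both scalings. Among all genes at this level it was highest for 49.4% on CPM. Under TMM it was highest least often among all genes, for 29.2%, beside 39.2% for pool 1 and 31.6% for pool 2. Of the 967, 164 differed by more than 5-fold and 87 by more than 10-fold. The share over 2-fold was 17.8% at 10 to 20 CPM and 3.35% at 50 to 100 CPM, but 22.2% among the 185 genes of at least 500 CPM. At 50 CPM or more 184 of 3279 genes, 5.61%, passed the limit, and at 1000 CPM or more 25 of 79, 31.6%. Highly expressed genes were thus more often apart than those of middle level, though their counting error was lower.

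**Figure D4:**
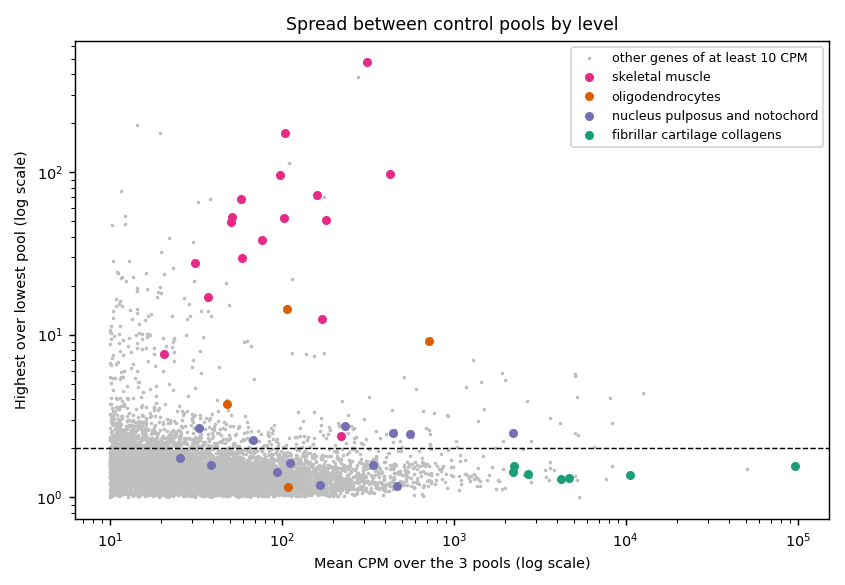
Highest over lowest pool (log axis) against mean CPM (log axis) for genes of at least 10 CPM, with 4 lists in colour and a dashed line at 2-fold; a gene with a pool at 0 is not drawn. Most muscle genes lie above the other coloured lists, while fibrillar cartilage collagens stay under the line.

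Further genes beside Mbp and Mobp were highest in pool 2, of which examples follow. By the ratio of pool 2 to the mean of the other pools, Il17d, at 74.6, 249 and 139 CPM, and Nrtn, the neurotrophic ligand neurturin, at 144, 793 and 600 CPM, were among the genes next to Mobp and Mbp. Gas1, a membrane protein of Hedgehog signalling, lay at 397, 1064 and 602 CPM and Dmkn at 23.2, 178 and 145 CPM. Apoe, a lipid carrier, lay at 1607, 4958 and 4316 CPM and Gsn, an actin-severing protein, at 2040, 5811 and 4626 CPM. Nrtn, Dmkn, Apoe and Gsn were also high in pool 3, so that pool 1 was the low pool for them.

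By the ratio of pool 3 to the mean of the other pools, the predicted gene Gm10800 led, at 15.7, 25.1 and 141 CPM. Pool 3 was also highest, beside keratins, for Serpina1e, at 150, 126 and 362 CPM, Msmp, at 163, 246 and 497 CPM, and Hopx, a homeodomain-only protein, at 45.7, 33.6 and 89.1 CPM. Msmp shares its locus with the opposite-strand gene Rgp1, which held 1.23 times its counts. The protocadherin Pcdh7 lay at 43.7, 34.4 and 92.6 CPM. Gm8730, annotated as a processed pseudogene, lay at 3.78, 261 and 267 CPM, so that its counts were low in pool 1 alone and spanned 70.7-fold. The 10 genes that led in pool 3 ranged over 2.26-fold to 8.98-fold between pools, less than those of pool 1, whose 10 leading genes were muscle genes or opposite-strand partners of them and ranged over 49.1-fold to 473-fold between pools.

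Among the most abundant genes a further set shared the order pool 1, pool 3, pool 2. It comprised 15 genes of at least 500 CPM and over 2-fold apart, a set chosen after its values were seen, and held 7.99%, 1.80% and 4.22% of the gene counts. Yam1 lay at 21736, 4952 and 11011 CPM and AY036118 at 13736, 3391 and 7237 CPM. The count of AY036118 for each count of Yam1 was 0.632, 0.685 and 0.657. AY036118 (chromosome 17, 39847113 to 39848035) lies within a locus that GENCODE annotates as ribosomal RNA, 39846353 to 39848827, on the same strand. The nuclear noncoding RNA Malat1 followed the same order at 4274, 1090 and 2628 CPM, as did Lars2, a mitochondrial leucyl-tRNA synthetase, at 2535, 362 and 1019 CPM, and Gphn (gephyrin) at 2378, 467 and 1511 CPM. The part of ribosomal RNA in these values was not tested. With the 15 genes left out, an alternative chosen after seeing the data, the matrix lists held 26.9% of the counts.

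**Figure D5:**
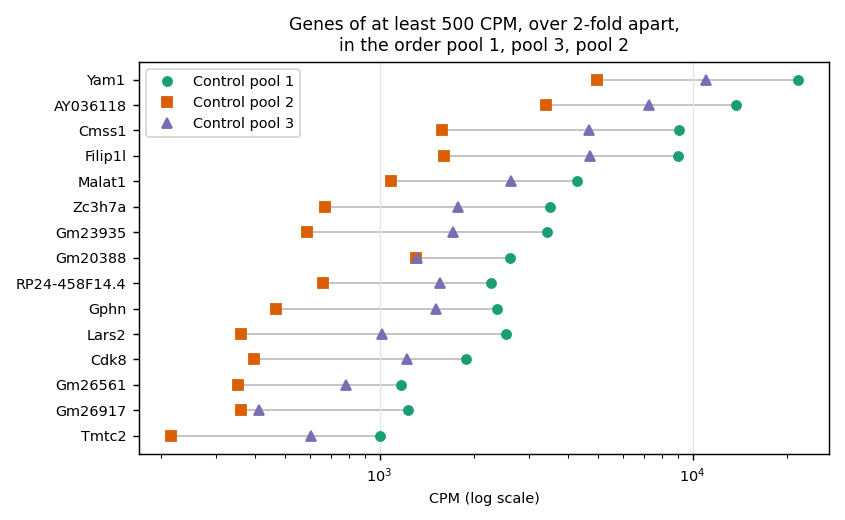
CPM (log axis) of the 15 genes of at least 500 CPM that were over 2-fold apart and ordered pool 1, pool 3, pool 2, with a grey line over the range of the 3 pools. Yam1 and AY036118 stood highest, and Lars2 had the widest range, 7.00-fold.

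Gene length tracked a further difference. Among protein-coding genes of at least 10 CPM, the 711 whose bodies span 200 kb or more lay higher in pool 3 than in pool 2 by a median of 0.66 on the log2 scale of CPM. The 867 genes under 5 kb did so by 0.09, while the median of all genes at this level lay 0.16 lower in pool 2 than in pool 3. TMM scaling, with factors of 0.956 in pool 2 and 1.09 in pool 3, would lower each of these differences alike. Between pools 1 and 2 the medians were 0.20 for the longest genes and -0.25 for the shortest. Pool 2 was thus lowest for long genes, and pool 1 was lowest for short genes. Sox5 and Sox6 span 954 kb and 568 kb, and the part of this trend in their values was not tested. Nor was its part in the values of other named genes and lists, among them Pcdh7, Apoe, Jund and the ribosomal protein genes.

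Some of the most abundant entries cannot be told apart from a neighbour on the other strand. Chad (chondroadherin), a matrix protein that binds integrins, lay at 3102, 7661 and 4432 CPM and Acsf2, in whose body it lies, at 3287, 7916 and 4717 CPM. Their count ratio was 0.944, 0.968 and 0.940. Cmss1 and Filip1l overlapped in the same way, with a ratio of 0.991, 1.02 and 1.01 and with 9085, 1581 and 4668 CPM for Cmss1. Of the 10232 genes at 10 CPM or more, 2220 had an opposite-strand neighbour with at least 0.5 times their counts. The values of Chad, Acsf2, Cmss1 and Filip1l are therefore uncertain as levels of those genes. Among other named genes, the opposite-strand neighbours of Acta1, Tnnt3, Myh1 and Jund held 4.24, 2.65, 0.88 and 0.55 times their counts. The values of these genes carry the same limit.

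Among genes at 50 CPM or more, the methyltransferase gene Setd3 had the lowest CV, 0.36%, at 66.0, 65.6 and 65.9 CPM, followed by Smarcd2, a chromatin remodelling subunit, and by Acan at 0.42%. Counting alone gives a CV of 3.91% at the level of Setd3, and each of the 10 genes with the lowest CV lay below its counting CV. Hsp90ab1, a cytosolic chaperone, lay at 671, 671 and 662 CPM. Under TMM, Setd3 spanned 1.13-fold and Hsp90ab1 1.15-fold. Outside every list, Apoe reached 6097 ± 2726 TPM, the protease inhibitor Cst3 5558 ± 1770 TPM, Gsn 4747 ± 1991 TPM and Mgp, the inhibitor of calcification, 2826 ± 795 TPM.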

How the data were processed

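Poly(A) RNA was sequenced from 3 pools of control discs. The deposited files hold raw counts per gene symbol with the closing lines of htseq-count. The labels' processing notes name STAR 2.5.3a, HTSeq and DESeq2 with mm10 and GRCm38, while the study's methods describe HISAT2, StringTie and Ballgown; which produced the files, and the strand setting, are not given in the sources used here. A table of the authors' genotype comparison and normalized values was not used, and mutant libraries were not used. No per-sample column was left unmapped (0 columns).

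Counts were divided by the gene total (CPM). The depth of 9061491 to 11207307 counts puts 3 counts at 0.268 to 0.331 CPM per library. Intervals cover counting error only. TPM used union exon lengths of GENCODE M21, to which 93.1% of symbols, with 98.3% of counts, were matched (39544 by symbol, 942 by synonym). edgeR 4.0.16 gave the common dispersion (intercept only, TMM, filterByExpr). DESeq2 1.42.0 gave an alternative dispersion. With 3 pools of 1 group no test was run. Alternatives were other scalings, filters, denominators and leaving out each pool. Named genes were the 30 highest by CPM and by TPM, those of the lists where discussed, the most and least even of at least 50 CPM, the highest of each pool, and the highest outside lists. Members and lists were chosen with earlier results of these data known.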

Additional observations from a re-analysis of the deposited data

How the results depend on the processing

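No paired analysis was possible because only 1 group of pools was described. For 330 genes holding 50% of the counts, the number became 111 without genes whose exons overlap the other strand, 180 on TPM and 211 without genes that share counts with an opposite-strand gene, an alternative chosen after seeing the data; leaving out each pool gave 278 to 366. The matrix share of 25.7% became 32.9% without exon-overlapping genes and 18.5% on TPM, and 23.8% to 27.9% without each pool. The coefficient of variation of 0.274 became 0.438 with no filter on low counts and 0.232 with the median DESeq2 dispersion, and 0.229 to 0.312 without each pool. The 967 genes over 2-fold apart became 5112 at 1 CPM or more, 30% of the genes examined against 9.45%, and 184 at 50 CPM or more, 5.61%, and 474 without pool 1, 597 without pool 2 and 415 without pool 3, where the 10 CPM limit was applied anew to the pools left; on the 10232 genes the counts between pairs of pools were 426 to 560. TMM gave 825 and RLE 823. The causes of these shifts were not tested. Depth limits the precision of genes below 1 CPM.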
